A study of Mus musculus with 12 samples.

Results

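Homeostatic microglia genes are 9 genes, P2ry12, Tmem119, Sall1, Siglech, Gpr34, Fcrls, Olfml3, P2ry13 and Slc2a5, that were taken by symbol from a table of 39756 mouse genes. Poly(A) RNA came from a brain hemisphere of each of 12 male mice, aged 9 to 10 weeks by the study's methods, with 4 mice in each of 3 groups. The strain is C57BL/6J in the labels and C57BL/6 in the methods. The labels call the hemisphere ischemic in all 12 mice, although Sham mice had no occlusion. Sham mice had sham surgery and received saline. Vehicle mice had a transient occlusion of the middle cerebral artery (tMCAO), a stroke model with a filament placed at the artery's origin and later pulled back, here after 45 min by the methods, and received saline. LJP mice had the same occlusion and received Laminaria japonica polysaccharide (LJP), a sulfated polysaccharide from brown seaweed. By the methods it was given into the stomach once a day for 14 days before surgery and continued afterwards, and saline followed the same schedule. No group carried a transgene. The labels give neither the dose nor the time after surgery of the sequenced mice. In the study's text, 200 mg/kg was the dose taken forward once several doses had been compared, and the time is not given in the sources used here. All 12 libraries carry the same batch label.

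Microglia are the resident macrophages of the brain parenchyma. At rest they express a set of genes that other macrophages largely lack, and signals such as TGF-beta, interleukin 34 and CSF1 receptor ligands maintain this set. After injury microglia proliferate and change shape, the resting-state genes are commonly reduced per cell, and monocytes and neutrophils can enter the tissue. RNA of a whole hemisphere adds all of these cells together, so fewer cells of a type and less RNA per cell cannot be told apart in the values given here.

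All 9 genes were detected in all 12 mice, with at least 43 counts, and all 9 passed the filter on low counts. Total counts per mouse lay between 17960353 and 22216315. Levels are given as CPM, counts scaled to a library size of 1e+06 after TMM normalization. A count of 0 would allow at most 3 counts, which is 0.135 to 0.167 CPM of the total count, for counting error only. Nothing in the labels says that the mice were housed or operated apart, so p-values measure the spread between these mice. The lineage genes Csf1r, Cx3cr1 and Aif1 were also present in every mouse, so each hemisphere held RNA of the microglia and macrophage lineage.

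In the Vehicle group, 4 of the 9 genes were higher than in the Sham group and none was lower (edgeR's quasi-likelihood test, adjusted p below 0.05), beside 22.7% of all 17558 genes tested that were higher and 17.3% that were lower. Fcrls rose 5.62-fold, Olfml3 3.68-fold, Tmem119 2.00-fold and Sall1 1.58-fold. P2ry12, Siglech, Slc2a5, Gpr34 and P2ry13 did not pass the test. The median log2 fold change of the 9 genes was 0.66, while that of all genes tested was 3.5e-05. The groups did not overlap, with every Vehicle mouse above every Sham mouse, in 4 genes, Sall1, Fcrls, Olfml3 and P2ry13, beside 20.7% of all genes tested. The levels in the 12 mice are plotted per gene.

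**Figure D1:**
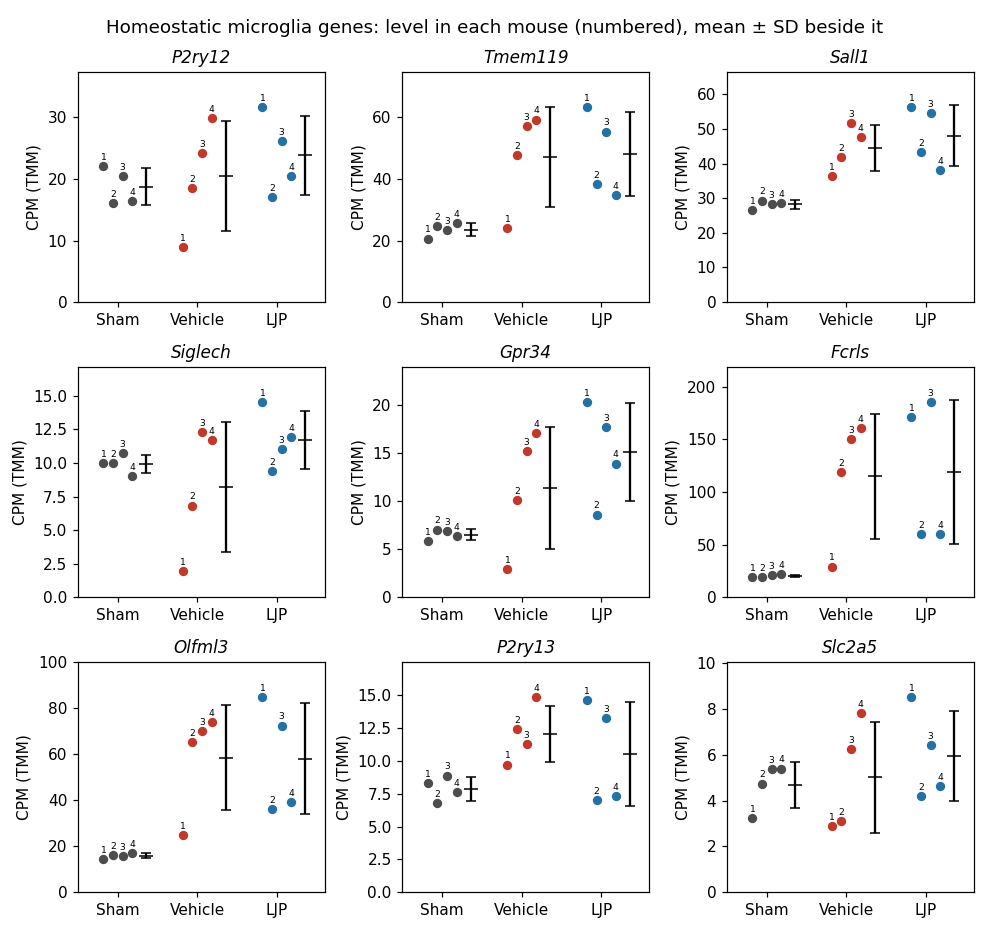
Level of each homeostatic microglia gene in CPM (y axis, from 0) in each mouse of the Sham, Vehicle and LJP groups (points, numbered by mouse), with the mean ± SD of 4 mice beside them. The Sham mice lie close together, Vehicle mouse 1 lies lowest of the ischemic mice in 8 of 9 genes, and LJP mice 1 and 3 lie above LJP mice 2 and 4 except in Siglech.

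P2ry12, P2ry13 and Gpr34 are receptors for extracellular nucleotides or lipids. P2ry12 (Entrez Gene 70839, chromosome 3 from 59216271 to 59262985, minus strand, GRCm38) encodes the ADP receptor with which resting microglia extend processes towards damaged cells. It stood at 22.1, 16.02, 20.6 and 16.4 CPM in Sham mice 1 to 4, at 8.98, 18.6, 24.3 and 30.0 in Vehicle mice 1 to 4, and at 31.7, 17.1, 26.2 and 20.5 in LJP mice 1 to 4. Vehicle mouse 1 was the lowest of all mice, and the 3 groups overlapped. The Vehicle mean of 20.4 ± 8.95 CPM (SD, n = 4) differed from the Sham mean of 18.8 ± 3.05 (SD, n = 4) by a log2 fold change of 0.12 (SE 0.30, edgeR adjusted p = 0.768).

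P2ry13 (Entrez Gene 74191, chromosome 3 from 59207892 to 59210882, minus strand) encodes another ADP receptor and lies next to P2ry12. Its levels were 8.30, 6.76, 8.88 and 7.62 CPM in Sham mice 1 to 4, 9.71, 12.4, 11.2 and 14.8 in Vehicle mice 1 to 4, and 14.6, 7.004, 13.3 and 7.30 in LJP mice 1 to 4. All Vehicle mice lay above all Sham mice, whereas LJP mice 2 and 4 lay within the Sham range. The log2 fold change of Vehicle against Sham was 0.61 (SE 0.24, edgeR adjusted p = 0.0563), just outside the threshold. It passed without Vehicle mouse 1 (edgeR adjusted p = 0.0487), without LJP mouse 1, 2 or 4, whose counts share the estimate of the spread (0.0407 to 0.0466), with DESeq2 (0.0437), with only the 2 groups in the fit (0.0218) and with library size alone as the scale (0.038). It did not pass with RLE scaling, without the filter or with a replicate block. Nor did it pass without LJP mouse 3, without Vehicle mouse 2, 3 or 4 or without any 1 of the Sham mice.

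Gpr34 (Entrez Gene 23890, chromosome X from 13622650 to 13640859, plus strand) encodes a receptor for lysophosphatidylserine. Sham mice 1 to 4 had 5.82, 7.03, 6.85 and 6.32 CPM, Vehicle mice 1 to 4 had 2.90, 10.1, 15.2 and 17.1, and LJP mice 1 to 4 had 20.3, 8.59, 17.7 and 13.9. Vehicle mouse 1 was below every Sham mouse and the other Vehicle mice were above them. With all mice the log2 fold change of Vehicle against Sham was 0.79 (SE 0.41, edgeR adjusted p = 0.142), and without Vehicle mouse 1 it was 1.11 and passed the test (edgeR adjusted p = 0.0084).

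Tmem119, Fcrls and Siglech are cell surface proteins. Tmem119 (Entrez Gene 231633, chromosome 5 from 113793729 to 113800396, minus strand), a transmembrane protein widely used to tell microglia from other macrophages, was present at 20.6, 24.6, 23.3 and 25.8 CPM in Sham mice 1 to 4. Vehicle mice 1 to 4 had 23.9, 47.9, 57.3 and 59.3 CPM and LJP mice 1 to 4 had 63.4, 38.3, 55.4 and 34.8. Vehicle mouse 1 lay within the Sham range and the other 7 ischemic mice above it. The log2 fold change of Vehicle against Sham was 1.00 (SE 0.26, edgeR adjusted p = 0.00947), while an exact permutation test on these 8 mice alone gave a two-sided p of 0.0857, where the smallest possible is 0.0286.

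Fcrls (Entrez Gene 80891, chromosome 3 from 87250736 to 87263765, minus strand), a scavenger receptor-like member of the Fc receptor-like family, changed most of the 9 genes. It stood at 19.5, 19.6, 20.99 and 21.6 CPM in Sham mice 1 to 4, at 29.2, 119, 150 and 160 in Vehicle mice 1 to 4, and at 171, 59.6, 185 and 60.3 in LJP mice 1 to 4. Every ischemic mouse exceeded every Sham mouse, and among the ischemic mice the values fell into a wide range. Against Sham, Vehicle mice had a log2 fold change of 2.49 (SE 0.50, edgeR adjusted p = 0.00259).

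Siglech (Entrez Gene 233274, chromosome 7 from 55768154 to 55779448, plus strand), a sialic acid-binding lectin of microglia and of plasmacytoid dendritic cells, had the only negative log2 fold change of Vehicle against Sham among the 9 genes. Sham mice 1 to 4 had 9.98, 9.97, 10.7 and 9.02 CPM, Vehicle mice 1 to 4 had 1.95, 6.83, 12.3 and 11.7, and LJP mice 1 to 4 had 14.5, 9.41, 11.04 and 11.9. Vehicle mice 1 and 2 lay below all Sham mice and Vehicle mice 3 and 4 above all of them. The log2 fold change was -0.28 (SE 0.39, edgeR adjusted p = 0.585), and it was 0.05 without Vehicle mouse 1, so that its sign rested on this mouse. Of the 6 other marker genes of plasmacytoid dendritic cells, 5 passed the filter and 2 were higher in the Vehicle group, and their summed level was 271 to 306 CPM in Sham, 274 to 418 in Vehicle and 298 to 346 in LJP mice. Most of that sum was Tcf4, a transcription factor gene of many brain cells, at a mean of 282 CPM in Sham and 303 in Vehicle mice, while the genes called were Bst2, from 3.33 to 17.5 CPM, and Irf7, from 1.93 to 7.23. Their part in the Siglech values was not tested.

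Sall1 (Entrez Gene 58198, chromosome 8 from 89027242 to 89044162, minus strand) encodes a zinc finger transcription factor that maintains microglia identity. It stood at 26.5, 29.3, 28.4 and 28.5 CPM in Sham mice 1 to 4, at 36.4, 41.9, 51.8 and 47.7 in Vehicle mice 1 to 4, and at 56.3, 43.3, 54.4 and 38.1 in LJP mice 1 to 4. Every ischemic mouse lay above every Sham mouse. Vehicle exceeded Sham by a log2 fold change of 0.66 (SE 0.14, edgeR adjusted p = 0.00304).

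Olfml3 (Entrez Gene 99543, chromosome 3 from 103735394 to 103738001, minus strand) encodes a secreted olfactomedin-like glycoprotein of the extracellular matrix. Its levels were 14.4, 16.4, 15.7 and 17.1 CPM in Sham mice 1 to 4, 24.8, 65.5, 70.2 and 74.0 in Vehicle mice 1 to 4, and 84.8, 36.2, 72.5 and 39.2 in LJP mice 1 to 4. Every ischemic mouse was above the Sham mice, with Vehicle mouse 1 nearest to them. The log2 fold change of Vehicle against Sham was 1.88 (SE 0.34, edgeR adjusted p = 0.00155).

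Slc2a5 (Entrez Gene 56485, chromosome 4 from 150119344 to 150144168, plus strand) encodes the fructose transporter GLUT5. It was the least abundant in CPM, at 3.23, 4.74, 5.37 and 5.39 in Sham mice 1 to 4, 2.90, 3.09, 6.24 and 7.81 in Vehicle mice 1 to 4, and 8.49, 4.19, 6.42 and 4.63 in LJP mice 1 to 4. The groups overlapped, with Vehicle mice 1 and 2 at the low end and Vehicle mice 3 and 4 above the Sham mice. Vehicle against Sham gave a log2 fold change of 0.09 (SE 0.34, edgeR adjusted p = 0.847).

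Per kilobase of the gene length given in the count table, the mean levels in Sham mice were 9.54 RPKM for Tmem119, 9.17 for Olfml3, 8.65 for Fcrls, 7.34 for P2ry12, 4.93 for Sall1, 3.12 for P2ry13, 2.34 for Siglech, 1.51 for Slc2a5 and 0.787 for Gpr34. The mice overlapped between neighbours from Tmem119 down to P2ry12, and did not overlap between neighbours from P2ry12 down to Gpr34. In Vehicle mice Fcrls stood first at 48.6 ± 25.3 RPKM (SD, n = 4), before Olfml3 at 33.8 ± 13.2 and Tmem119 at 19.1 ± 6.57, and the order of the other 6 genes by their means stayed as in Sham mice. LJP mice had the same order as Vehicle mice, led by Fcrls at 50.5 ± 29.0 RPKM (SD, n = 4). In the Vehicle group only P2ry13 was separated from both of its neighbours, Sall1 and Siglech, and in the LJP group only the steps from Tmem119 to P2ry12 and from Sall1 to P2ry13 showed no overlap.

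The spread within groups differed. The standard deviation was 4.18% to 21.7% of the mean over the 9 genes in Sham mice, 15.2% to 59.0% in Vehicle mice and 18.3% to 57.6% in LJP mice. The 9 levels summed to 131, 134, 141 and 138 CPM in Sham mice 1 to 4, to 141, 325, 399 and 423 in Vehicle mice 1 to 4, and to 465, 224, 442 and 231 in LJP mice 1 to 4. Vehicle mouse 1 thus had a Sham-like sum, and it was the lowest of the 8 ischemic mice in 8 of 9 genes and of all 12 mice in 4. LJP mouse 1 was the highest of all 12 mice in 7 of 9 genes.

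**Figure D2:**
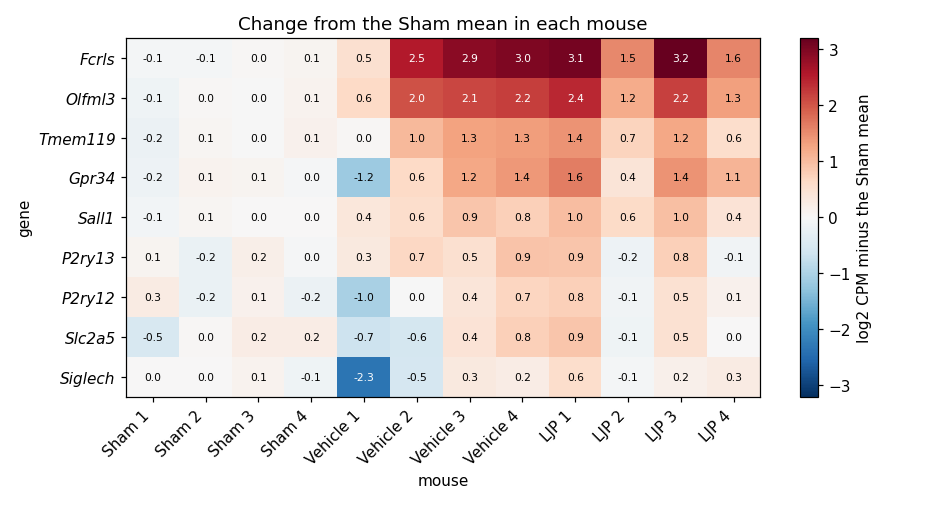
Log2 CPM minus the mean log2 CPM of the Sham mice for each homeostatic microglia gene (rows) in each of the 12 mice (columns), with the value printed in each cell. Fcrls and Olfml3 are above the Sham mean in all 8 ischemic mice, and in Vehicle mouse 1 P2ry12, Gpr34, Slc2a5 and Siglech are below it.

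The mice that stood apart in these genes also differed in markers of other cells. The 8 neutrophil markers, which include S100a8, S100a9 and Ly6g, summed to 166, 40.5, 0.754 and 5.55 CPM in Vehicle mice 1 to 4, to 0.272 to 0.519 in Sham mice and to 0.307 to 1.11 in LJP mice. None of the 8 passed the edgeR filter, and DESeq2, run without it, called 5 of them higher in Vehicle than in Sham mice (18.9% of all genes were) and 5 lower in LJP than in Vehicle mice (9.15% were). Ly6g, Retnlg and Cxcr2 were at 0 in all Sham mice. Of the 8 monocyte markers 5 passed the filter, and all 5 rose from Sham to Vehicle mice, beside 22.7% of all genes tested (8 of 8 by DESeq2, beside 18.9%). The 8 summed to 617, 1241, 254 and 294 CPM in Vehicle mice 1 to 4, to 101 to 103 in Sham mice and to 141 to 280 in LJP mice. Most of this sum and its order came from Fn1, the fibronectin gene, which other cells express too and which had 10066, 25561, 4258 and 4710 counts in Vehicle mice 1 to 4. The chitinase-like gene Chil3 had 2206, 1963, 29 and 186 counts in the same mice, and Itgal, an integrin gene of leukocytes, 266, 188, 24 and 68.

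Vehicle mice 1 and 2 thus had the most RNA of neutrophil and monocyte markers. All 8 markers of border-associated macrophages rose from Sham to Vehicle mice, beside 22.7% of all genes tested. Their sum was 87.7, 224, 41.5 and 55.3 CPM in Vehicle mice 1 to 4, 12.9 to 15.6 in Sham mice and 20.3 to 43.6 in LJP mice. Between LJP and Vehicle mice edgeR called none of the monocyte or border-associated macrophage markers, of which 4 and 6 were lower at an unadjusted p below 0.05, and DESeq2 called 4 and 6 lower. Of all genes, 17.4% were lower at that unadjusted p and 9.15% by DESeq2. None of these markers was at 0 in all mice of a group. The part of these cells in the levels of the 9 genes was not tested. Without Vehicle mice 1 and 2, a choice made after their values were seen, 6 of 9 genes were higher in Vehicle mice, beside 15.7% of the 18066 genes tested without them, Gpr34 (log2 fold change 1.30, edgeR adjusted p = 0.000817) and P2ry13 (0.72, 0.0463) being added, and the log2 fold change of Siglech was 0.27.

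**Figure D3:**
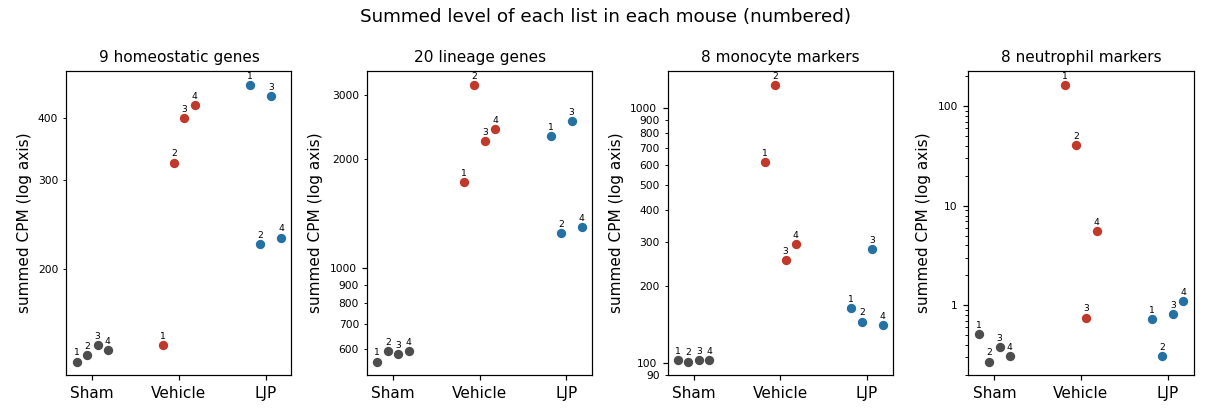
Summed CPM (log axes) of the 9 homeostatic microglia genes, of 20 genes of the microglia and macrophage lineage, of 8 monocyte markers and of 8 neutrophil markers in each mouse (points, numbered by mouse). Vehicle mouse 1 lies with the Sham mice at 141 CPM for the 9 genes and highest of all mice, at 166 CPM, for the neutrophil markers.

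The 9 genes were set against genes of the whole lineage. All 20 lineage genes rose from Sham to Vehicle mice, at a median of 2.22 on the log2 scale, beside 22.7% of all genes tested that were higher. Csf1r, the CSF1 receptor, rose by 1.26 on the log2 scale (edgeR adjusted p = 0.0006), Cx3cr1, the fractalkine receptor, by 1.01 (0.00387) and Aif1, which encodes Iba1, by 1.83 (0.000634). The lysosomal glycoprotein gene Cd68 rose by 3.61 (edgeR adjusted p = 5.24e-05) and the complement gene C1qa by 2.76 (9.06e-05). P2ry12, Siglech and Slc2a5, by contrast, had log2 fold changes between -0.28 and 0.12 in the same mice.

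The level of each homeostatic gene relative to this lineage was taken in each mouse as its log2 CPM minus the mean log2 CPM of Aif1, Csf1r and Itgam. For P2ry12 it was 0.27, -0.13, 0.20 and -0.05 in Sham mice 1 to 4, -2.55, -2.01, -1.25 and -0.96 in Vehicle mice 1 to 4, and -0.96, -0.89, -1.23 and -0.75 in LJP mice 1 to 4. All 8 ischemic mice lay below the Sham mice. The reference genes themselves rose, Itgam by 2.37 on the log2 scale beside Csf1r and Aif1 above, so a gene that stayed level in CPM is lower on this scale. The Vehicle group was lower than the Sham group without overlap in 7 of 9 genes, beside 86.8% of all 17555 genes tested apart from the 3 reference genes, a share that the members did not exceed. The median difference of all those genes was -1.78, past which only Siglech of the 9 fell, and 4.76% of them had a higher mean in Vehicle mice. Among the 7 members the ratio was lower by 1.76 on the log2 scale for P2ry12, 2.33 for Siglech, 1.77 for Slc2a5, 1.24 for Gpr34, 1.17 for P2ry13, 1.12 for Sall1 and 0.85 for Tmem119 (exact permutation test, two-sided, unadjusted p = 0.0286 for each, the smallest that 4 mice against 4 allow). Fcrls differed by 0.46 (exact p = 0.343) and Olfml3 by -0.01 (exact p = 0.971), and both overlapped.

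Tmem119 and Sall1 were thus higher in CPM and rose less than the 3 reference genes, while Fcrls and Olfml3 were higher in CPM and showed no detectable difference from Sham on the ratio. Aif1 and Itgam are also expressed by monocytes, and Itgam by neutrophils, whose markers were highest in Vehicle mice 1 and 2. The part of these cells in the ratios was not tested. For Siglech the ratio was -4.69 and -3.44 in Vehicle mice 1 and 2 and -2.22 and -2.31 in Vehicle mice 3 and 4, where all Sham mice lay between -0.90 and -0.73. With Csf1r alone as the reference Tmem119 (-0.31, exact permutation p = 0.0857) and Gpr34 (-0.70, exact permutation p = 0.114) no longer passed. Without Vehicle mice 1 and 2 the differences were -1.43 for Siglech, -1.17 for P2ry12, -1.11 for Slc2a5, -0.997 for P2ry13, -0.89 for Sall1, -0.41 for Gpr34 and -0.40 for Tmem119, still without overlap, and Fcrls and Olfml3 were then higher without overlap, by 1.21 and 0.47. This choice was made after the values were seen and has no test. The share of all genes without overlap was not counted for this choice, so the separation is not read as particular to the members.

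**Figure D4:**
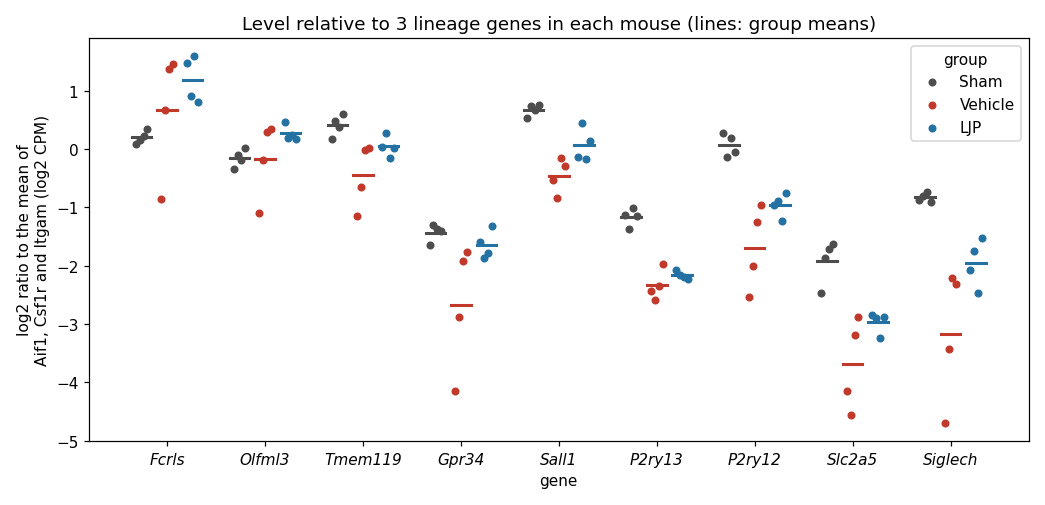
Log2 CPM of each homeostatic microglia gene minus the mean log2 CPM of Aif1, Csf1r and Itgam (y axis) in each mouse (points), with lines at the group means. In 7 genes all Vehicle mice lie below all Sham mice, while the Fcrls and Olfml3 points of these groups overlap.

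The genes were also set against each other within each mouse, which needs no library scale. Per P2ry12 count, Fcrls counts were 0.880 to 1.32 in Sham mice, 3.25 to 6.42 in Vehicle mice and 2.94 to 7.08 in LJP mice. Olfml3 counts per P2ry12 count were 0.651 to 1.04 in Sham, 2.47 to 3.53 in Vehicle and 1.91 to 2.77 in LJP mice. Tmem119 counts per P2ry12 count were 0.932 to 1.57 in Sham, 1.98 to 2.66 in Vehicle and 1.70 to 2.24 in LJP mice.

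In all 3 ratios no ischemic mouse, Vehicle mouse 1 included, overlapped the Sham mice. Of the 17557 genes tested other than P2ry12, 3.46% lay above the Sham mice in all 8 ischemic mice on this scale. Sall1 counts per P2ry12 count were 1.20 to 1.83 in Sham, 1.59 to 4.05 in Vehicle and 1.78 to 2.53 in LJP mice, with overlap. Slc2a5 per P2ry12 lay at 0.146 to 0.329 in Sham, 0.167 to 0.323 in Vehicle and 0.226 to 0.268 in LJP mice, within the same range in all groups. Siglech per P2ry12 lay at 0.451 to 0.622 in Sham, 0.217 to 0.508 in Vehicle and 0.422 to 0.582 in LJP mice, and the groups overlapped. Gpr34 per P2ry12 lay at 0.263 to 0.439 in Sham, 0.323 to 0.625 in Vehicle and 0.501 to 0.677 in LJP mice, where all LJP mice were above all Sham mice (3.69% of the 17557 genes were) and the Vehicle mice overlapped both groups. P2ry13 per P2ry12 lay at 0.375 to 0.465 in Sham, 0.463 to 1.08 in Vehicle and 0.356 to 0.507 in LJP mice, with overlap.

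The question of LJP treatment was addressed by comparing LJP with Vehicle mice, both after occlusion. None of the 9 genes passed the test in either direction, beside 0.0228% of all genes tested (4 genes) that did. None had an unadjusted p below 0.05 in edgeR, beside 29.7% of all genes tested (12.3% higher and 17.4% lower in LJP mice), and DESeq2 called none of the 9 as well, though it called 12.8% of the 17898 genes to which it gave an adjusted p (3.69% higher and 9.15% lower). All 9 overlapped between the groups, while 11.7% of all genes tested did not. Their log2 fold changes lay between -0.19 for P2ry13 and 0.52 for Siglech, with a median of 0.11 and 7 of 9 above 0. Without Vehicle mice 1 and 2 all 7 turned below 0, from -0.38 for Fcrls to -0.034 for Siglech. With all mice the edgeR adjusted p-values lay between 0.367 and 0.987.

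The intervals of these differences were wide. For Fcrls the fold of LJP over Vehicle was 1.04 with a 95% interval of 0.518 to 2.08, for Siglech 1.44 (0.804 to 2.57), for Gpr34 1.34 (0.732 to 2.45), for P2ry12 1.17 (0.750 to 1.83) and for Olfml3 0.994 (0.612 to 1.61). The narrowest was that of Sall1, at 1.08 (0.885 to 1.32).

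Relative to Aif1, Csf1r and Itgam, all 9 genes had a higher mean in LJP mice, by 0.17 (P2ry13) to 1.21 (Siglech) on the log2 scale. All overlapped and none passed an exact permutation test (two-sided, p = 0.0571 for P2ry12 and for Sall1, and 0.0857 to 0.4 for the others). Of the same 17555 genes, 84.4% also had a higher mean ratio in LJP mice, with a median difference of 0.43, and their share without overlap was not counted. Without Vehicle mice 1 and 2 the differences were smaller or turned, at 0.31 for Siglech, 0.29 for Sall1, 0.20 for Gpr34, 0.15 for P2ry12, 0.074 for Slc2a5, 0.037 for Tmem119, -0.0071 for P2ry13, -0.045 for Olfml3 and -0.23 for Fcrls, so the size of most rested on these mice. In the LJP group P2ry12 was at -0.96 ± 0.20 (SD, n = 4) on this scale and in the Vehicle group at -1.69 ± 0.72 (SD, n = 4). Of the reference genes, Itgam had a log2 fold change of LJP against Vehicle of -0.91 (edgeR adjusted p = 0.0795), Csf1r of -0.19 and Aif1 of -0.08. With Csf1r alone as the reference, the mean difference of P2ry13 turned to -0.06.

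LJP mice were then compared with the same Sham mice, so the values below share their controls with those of the Vehicle group. The same 4 genes were higher, beside 3.85% of all genes tested that were higher. Fcrls rose by 2.54 on the log2 scale (SE 0.50, edgeR adjusted p = 0.0112), Olfml3 by 1.87 (0.34, 0.0071), Sall1 by 0.77 (0.14, 0.00607) and Tmem119 by 1.03 (0.26, 0.0404). The call of Tmem119 was lost without any 1 of the Sham mice (edgeR adjusted p = 0.0894 to 0.130), where its log2 fold change was 0.97 to 1.07, and without LJP mouse 1 (0.86, edgeR adjusted p = 0.118) or 3 (0.95, 0.128). It was also lost with a replicate block (1.04, edgeR adjusted p = 0.0978).

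Every LJP mouse lay above every Sham mouse in 5 genes, Tmem119, Sall1, Gpr34, Fcrls and Olfml3, beside 12.9% of all genes tested. Gpr34 had a log2 fold change of 1.21 (SE 0.41, edgeR adjusted p = 0.126), which passed without Vehicle mouse 1 in the shared fit (0.0152), with only the 2 groups in the fit (0.00112) and with DESeq2 (0.0359). It also passed without Vehicle mice 1 and 2 (edgeR adjusted p = 0.000608), and under no other alternative run. P2ry13, P2ry12, Slc2a5 and Siglech had log2 fold changes of 0.42, 0.35, 0.34 and 0.24 with edgeR adjusted p-values of 0.372 to 0.792. Relative to the 3 lineage genes, which had risen here too, by 1.07 (Csf1r), 1.75 (Aif1) and 1.45 (Itgam), P2ry12, Siglech, P2ry13, Slc2a5 and Sall1 were lower in all LJP than in all Sham mice, by 1.03, 1.12, 1.00, 1.04 and 0.60 on the log2 scale, and Fcrls and Olfml3 were higher, by 0.99 and 0.42 (p = 0.0286 for each in a two-sided exact permutation test). Beside these 5 and 2 genes, 83.6% of the 17555 genes were lower and 0.968% higher without overlap. The median difference of those genes was -1.35, so all 5 lower members fell less than the median gene. Tmem119 and Gpr34 differed by -0.36 and -0.21 (exact permutation p = 0.0571 and 0.229).

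**Figure D5:**
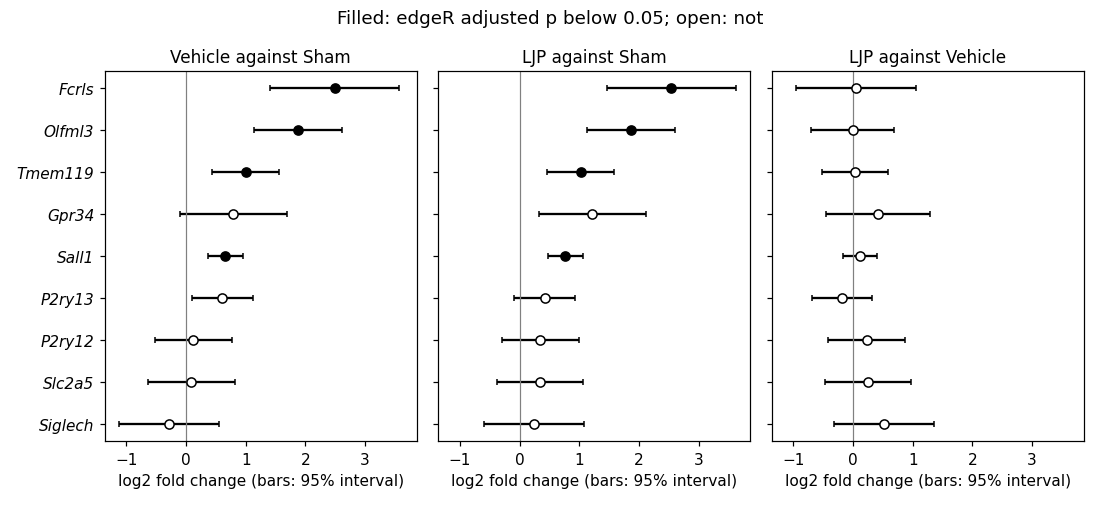
Log2 fold change of each homeostatic microglia gene (x axis) in the 3 comparisons, with 95% intervals from the edgeR fit; filled points passed an adjusted p of 0.05 and open points did not. Fcrls, Olfml3, Tmem119 and Sall1 are filled in both comparisons with Sham mice, and no point is filled in the comparison of LJP with Vehicle mice.

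A list of other genes known from resting microglia was counted in the same way. Against Sham mice, 18 of 25 such genes were higher and none lower in Vehicle mice, at a median log2 fold change of 0.94, and 10 were higher in LJP mice. Of all genes tested, 22.7% were higher in Vehicle and 3.85% in LJP mice. None of the 25 passed the edgeR test between LJP and Vehicle mice, where 4 were lower at an unadjusted p below 0.05 and 4 by DESeq2, beside the 17.4% and 9.15% of all genes that were lower in this way. Cd33, a Siglec family receptor, rose by 2.24 in Vehicle mice (edgeR adjusted p = 0.000122) and Adgrg1, an adhesion receptor of microglia and other cells, by 0.65 (0.000177). Of 24 regulators of microglia identity and survival, 11 were higher and 3 lower in Vehicle mice against Sham, and 8 were higher and none lower in LJP mice. None passed between LJP and Vehicle mice, with 1 higher and 7 lower at an unadjusted p below 0.05 and 5 lower by DESeq2. The regulators included Spi1, which encodes PU.1, a myeloid transcription factor that monocytes also express (log2 fold change 2.89, edgeR adjusted p = 0.000124).

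Genes known from disease-associated microglia, which rise as homeostatic genes fall, were higher in 18 of 22 cases in the Vehicle and in 16 in the LJP group against Sham, with medians of 2.31 and 1.54 on the log2 scale. These counts are to be read against the same 22.7% and 3.85% of all genes tested. The genes with the smallest p were Lgals3, galectin 3 (6.22 in Vehicle mice, edgeR adjusted p = 4.65e-05), and the tetraspanin gene Cd9 (1.87, 8.96e-05). None of the 22 passed the edgeR test between LJP and Vehicle mice, with 9 lower at an unadjusted p below 0.05 and 4 by DESeq2, to be read against the same 17.4% and 9.15%.

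The gene families and pathways of the members were counted beside the 22.7% of all genes that were higher and the 17.3% that were lower. Of 19 tested genes of purinergic receptors and nucleotide enzymes, 9 were higher and 1 was lower in Vehicle mice against Sham. The uridine nucleotide receptor gene P2ry6 rose by 2.73 on the log2 scale (edgeR adjusted p = 9.61e-05), and the adenosine receptor gene Adora2a, which striatal neurons express, fell by 2.67 (0.000442). Of 11 tested genes of hexose and fructose transport, 5 were higher, among them the urate and hexose transporter gene Slc2a9 (2.53, edgeR adjusted p = 0.000307) and the fructokinase gene Khk (0.89, 0.000751), and 1 was lower.

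Of 8 tested Fc receptor-like and Siglec genes, 6 were higher, among them Cd33 and the macrophage gene Siglec1 (log2 fold change 4.03, edgeR adjusted p = 0.000287). Of 9 tested olfactomedin and Sall genes, Olfml2b was higher (1.01, edgeR adjusted p = 0.000391) and Olfm3, a neuronal gene, lower (-0.85, 0.0378). Against Sham, LJP mice were higher in 3 of these purinergic genes and lower in 1, and higher in 2 hexose, 5 Fc receptor-like and Siglec and 1 olfactomedin or Sall gene, where 0.9% of all genes tested were lower. Between LJP and Vehicle mice none of these genes passed the edgeR test. At an unadjusted p below 0.05, 1 purinergic gene was higher and 6 lower, 1 hexose gene higher and 2 lower, 2 Fc receptor-like and Siglec genes lower and 2 olfactomedin or Sall genes higher. By DESeq2 the counts were 1 higher and 4 lower, 1 lower, 2 lower and 1 higher, against the shares of all genes given above for this comparison.

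Over the 12 mice, the genes outside the 9 whose log2 CPM was most like the mean of the 9 were Hexa (Pearson r = 0.990), Fabp7 (0.981), Pla2g15 (0.968), Capn3 (0.950) and Gfm2 (0.943). With the mean of each group removed they were Hexa (0.993), Pla2g15 (0.978), Fabp7 (0.974), Evi2a (0.968) and Itgb5 (0.964). These correlations describe 12 libraries, which share their depth and their mixture of cells with the 9 genes. Hexa, the lysosomal hexosaminidase alpha subunit, stood at 44.9 ± 1.67 CPM in Sham, 77.4 ± 30.0 in Vehicle and 79.2 ± 26.5 in LJP mice (SD, n = 4 each). Fabp7, a fatty acid-binding protein of astrocytes and neural progenitors, had a log2 fold change of 1.62 from Sham to Vehicle mice (edgeR adjusted p = 0.0209).

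Among the 9 genes themselves, the correlation of each with the mean of the others over 12 mice ran from 0.49 for Siglech to 0.96 for Tmem119. With group means removed it ran from 0.71 for P2ry13 to 0.97 for Tmem119, and that of Siglech was 0.86.

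Promoters were read for 7 of the 9 genes from RefSeq (GRCm38.p6), as the 250 bases before the start that RefSeq gives. That start differs from the count table's for Fcrls and Siglech, so that 241 bases of the Fcrls window and 30 of the Siglech window lie inside the gene as placed above. Sall1 has 3 such windows, of which 2 lie wholly inside the gene. Short motifs known from microglia factors were searched on both strands: GAGGAA, the core of the PU.1 site, GAANNGAAA, of the joint ETS and IRF site, CTANNNNTA, of the MEF2 site, and CAGACA, a SMAD site. They occurred in 23.1%, 6.34%, 19.0% and 17.1% of 27018 promoters of the same length. Olfml3 and Sall1 held none of them, Fcrls held GAGGAA and CAGACA, P2ry13 held GAGGAA and CTANNNNTA, P2ry12 held CTANNNNTA, and Siglech and Slc2a5 held CAGACA. The windows of Olfml3 (chr3:103738002-103738251, minus strand), which rose in both comparisons with Sham mice, and of P2ry13 (chr3:59210883-59211132, minus strand), which did not pass, are shown because neither overlaps an annotated exon. They are written 5′ to 3′ up to the base before the start, with the motifs in capitals.
Olfml3: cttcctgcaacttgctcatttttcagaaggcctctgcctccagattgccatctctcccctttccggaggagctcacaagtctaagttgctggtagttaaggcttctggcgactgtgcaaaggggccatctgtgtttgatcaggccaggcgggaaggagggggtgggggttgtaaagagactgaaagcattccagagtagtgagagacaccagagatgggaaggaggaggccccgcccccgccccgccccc
P2ry13: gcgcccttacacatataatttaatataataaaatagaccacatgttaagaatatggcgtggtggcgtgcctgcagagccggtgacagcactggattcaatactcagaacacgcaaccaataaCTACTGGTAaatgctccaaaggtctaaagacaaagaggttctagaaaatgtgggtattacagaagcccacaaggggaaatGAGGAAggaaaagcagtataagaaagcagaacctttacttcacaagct
In the P2ry13 window GAGGAA begins 48 bases and CTANNNNTA 128 bases before the start. Such matches describe the letters of the window and show no binding.

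Some members share their position with other genes, and the strand setting of the counting is not given in the sources used here. Med12l, on the plus strand, spans P2ry12 and P2ry13, had 590 to 857 counts per mouse, and shares 9 of the 2546 exonic bases of P2ry12 (0.354%) in the GENCODE annotation. Cask spans Gpr34 on the other strand with 1313 to 1741 counts per mouse and shares no exonic base with it. Gm3134 overlaps Sall1 with 20 to 34 counts and Gm39015 overlaps Siglech with 0 to 3. Reads of unspliced transcripts of Med12l or Cask within P2ry12, P2ry13 or Gpr34 exons cannot be told apart from reads of these genes without strand.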

How the data were processed

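By the study's methods, poly(A) RNA of hemispheres was made into libraries and read as paired 150-base reads. The authors deposited raw read counts per gene and mouse, with gene positions that match GRCm38.p6 for 39754 of 39756 genes and for all 9 members, and with a gene length in bases. The submitters' processing notes name featureCounts, DESeq2, GRCm39 and mm10, with no role or version. The aligner and strand setting are not given in the sources used here, so reads shared between overlapping genes may have been placed either way. Groups were taken from the sample labels.

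Counts of all 12 mice were fitted together in edgeR 4.0.16 (R 4.3.3): 17558 genes passed filterByExpr, libraries were scaled by TMM, and a quasi-likelihood test with Benjamini-Hochberg adjustment over all of them was called at 0.05. SE is the absolute log2 fold change over the square root of F, and 95% intervals use the t distribution. Log2 CPM values had a prior count of 2. Exact permutation tests enumerated all 70 splits of 8 mice with scipy 1.17.1, two-sided. RPKM was computed here as CPM per kilobase of the deposited length. Depth was 17960353 to 22216315 counts per mouse, and intervals and floors cover counting error only where stated. The method was tested on simulated data. It recovered 151 of 200 changes of log2 size 1 or 2 set between Vehicle and Sham mice, with 4 false calls, so some changes of that size were missed. Mice of a group differed by more than sampling noise (lowest chi-square over its degrees of freedom, 2.56).

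Alternatives were DESeq2 1.42.0, other scalings, no filter, 2 groups only, a replicate block, Csf1r alone as the reference gene, another prior count and leaving out mice. The 9 members, the gene lists and the tests were chosen with earlier results of these data known. Named genes are the members, Csf1r, Cx3cr1 and Aif1, at most 2 genes per list with the smallest p in Vehicle against Sham (and 1 in LJP against Vehicle if any passed, which none did), the 5 genes most like the members' mean over 12 mice with and without group means, and genes overlapping a member. Outside this rule, Itgam is named as a reference gene, and the neutrophil genes, Fn1, Chil3, Itgal, Tcf4, Ms4a1, Cd3e and Cd8a were named after their values were seen. Some genes and 1 alternative that the rules name are not reported here. Protein sequences were not used here. Plots were drawn with matplotlib 3.10.9.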

Additional observations from a re-analysis of the deposited data

Results flagged for a closer look

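Olfml3 in Vehicle mouse 1 was far below the other Vehicle mice. At 24.8 CPM it lay below 65.5, 70.2 and 74.0 CPM, and on the log2 CPM scale the gap to the nearest mouse was 0.889 of the range of the group, over Dixon's 95% critical value for 4 samples. On the CPM scale the same ratio was 0.828, just under that value. It was 1 of 27 groups of 4 mice checked over the 9 genes, and chance alone gives about 1 in 20, or 1.35. The same mouse had the most neutrophil marker RNA, at 166 CPM, and the part of that in the Olfml3 value was not tested.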

How the results depend on the processing

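The number of the 9 genes called stayed within 1.5 times of its value under every alternative run, at 4 to 6 for Vehicle against Sham, 3 to 5 for LJP against Sham and 0 for LJP against Vehicle, and the 4 calls of Vehicle against Sham were lost under none. The counts over all genes also stayed within 1.5 times for Vehicle against Sham, where 7014 genes were called. They moved more in the 2 comparisons with LJP mice. For LJP against Vehicle 4 genes were called, with DESeq2 2298, without the filter 593, with only the 2 groups 2, without Vehicle mice 1 and 2 (chosen after seeing the data) 8, and 3 to 3857 with 1 mouse left out, the highest without Vehicle mouse 3 and 2095 without Vehicle mouse 4. For LJP against Sham 834 were called, with DESeq2 1458, with only the 2 groups 4043, without Vehicle mice 1 and 2 4389, and 393 (without LJP mouse 3) to 2357 (without Vehicle mouse 2) with 1 mouse left out. The cause was not tested.

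With a replicate block the count was 2 for LJP against Vehicle and 464 for LJP against Sham, the log2 fold change of Olfml3 for LJP against Vehicle was 0.0021 instead of -0.01, and Tmem119 lost its call for LJP against Sham (edgeR adjusted p = 0.0978). Same-numbered mice correlated between -0.322 and 0.114 in their deviations from the group means, and 2, 0 and 2 of 4 mice correlated best with their own number in Vehicle against Sham, LJP against Vehicle and LJP against Sham. No pairing by number was assumed, and a check on 4 mice per group cannot exclude one.

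Directions that changed belonged to values that had not passed. With 1 mouse left out, the log2 fold change of Vehicle against Sham ran from -0.12 to 0.37 for P2ry12, from -0.55 to 0.047 for Siglech and from -0.21 to 0.28 for Slc2a5, and that of LJP against Vehicle from -0.021 to 0.47 for P2ry12, from -0.19 to 0.16 for Tmem119, from -0.27 to 0.28 for Fcrls and from -0.26 to 0.16 for Olfml3. Without Vehicle mice 1 and 2, LJP against Vehicle gave -0.18 for P2ry12, -0.28 for Tmem119, -0.051 for Sall1, -0.034 for Siglech, -0.095 for Gpr34, -0.38 for Fcrls and -0.24 for Slc2a5, and Vehicle against Sham gave 0.27 for Siglech. Ratios to the lineage turned for Olfml3 in Vehicle against Sham (0.53 with Csf1r alone as the reference), in LJP against Vehicle for P2ry13 (-0.060), and in LJP against Sham for Gpr34 (0.10). Without Vehicle mice 1 and 2, the ratio of LJP against Vehicle fell below 0 for Fcrls, Olfml3 and P2ry13. The lowest count of a member in a mouse was 43.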

Other observations

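Markers of other brain cells were counted too. Against Sham mice, 3 of 8 neuron markers were lower in Vehicle mice, of 6 astrocyte markers 2 were higher and 1 lower, of 6 oligodendrocyte markers 1 was higher, and of 7 endothelial and mural markers 4 were higher (edgeR adjusted p below 0.05). Of all genes tested 22.7% were higher and 17.3% lower in this comparison. The endothelial and mural markers summed to 713, 1516, 364 and 410 CPM in Vehicle mice 1 to 4, to 271 to 298 in Sham mice and to 257 to 340 in LJP mice. Of 7 lymphocyte markers 1, Cd4, passed the filter and was lower in Vehicle than in Sham mice, and Ms4a1 was at 0 in all Sham and all Vehicle mice. Cd4 had 390, 464, 407 and 367 counts in Sham mice 1 to 4, where Cd3e had 0, 0, 6 and 0 and Cd8a 4, 2, 2 and 0. In Vehicle mice 1 to 4 Cd3e had 6, 13, 0 and 5 counts and Cd8a 1, 13, 1 and 0. The fall of Cd4 is thus not read as a fall of lymphocytes, and the cells that carried its RNA were not tested. Between LJP and Vehicle mice none of the markers of these 5 cell classes passed the edgeR test, while at an unadjusted p below 0.05 5 endothelial and mural, 2 oligodendrocyte and 1 astrocyte marker were lower and 2 neuron markers and Cd4 higher (by DESeq2 5, 1, 1, 1 and 1). Of all genes, 12.3% were higher and 17.4% lower at that unadjusted p, and 3.69% and 9.15% by DESeq2.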
